A study of Homo sapiens and Mus musculus with 17 samples.

Results

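The genes described here encode J-domain co-chaperones of the endoplasmic reticulum (ER). They are DNAJB9, DNAJB11, DNAJC3, DNAJC10, DNAJC1, SEC63, DNAJB12 and DNAJB14, found by gene symbol in both deposited expression tables. These 8 are a set list and not every J-domain gene of the ER. All 8 were present among 62714 human and 55491 mouse genes, and all 8 passed the filter on low values in both tables. Polyadenylated RNA was sequenced in 9 libraries of HEK293T, a human embryonic kidney line, and in 8 libraries of mouse brown adipose tissue (BAT), the fat that burns fuel for heat. The HEK293T groups were WT (n = 3), which by the study's methods received plasmid without guide RNA, HRD1 KO (n = 3) and SEL1L KO (n = 3), both made with CRISPR-Cas9. The mice were C57BL/6J and 12 weeks old, and the groups were WT littermates (n = 3), Hrd1 flox/flox;Ucp1-Cre (Hrd1 KO, n = 2) and Sel1L flox/flox;Ucp1-Cre (Sel1L KO, n = 3). Ucp1-Cre acts in brown adipocytes, whereas the libraries came from whole tissue, so fewer cells of a type and less RNA per cell cannot be told apart.

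J-domain proteins bind Hsp70 chaperones through the J domain, stimulate ATP hydrolysis by the Hsp70 and so help it to grip a client protein. The Hsp70 of the ER lumen is BiP, encoded by HSPA5. DNAJB9 (ERdj4), DNAJB11 (ERdj3), DNAJC3 (p58IPK, ERdj6) and DNAJC10 (ERdj5) are lumenal partners of BiP, DNAJC1 (ERdj1) and SEC63 (ERdj2) span the membrane with the J domain in the lumen, and DNAJB12 and DNAJB14 span it with the J domain in the cytosol, where they work with HSC70. SEL1L and HRD1, the latter encoded by SYVN1, form the core of a ubiquitin ligase for ER-associated degradation (ERAD), which removes misfolded proteins from the ER. The unfolded protein response (UPR) senses misfolded proteins in the ER and raises the transcription of chaperone genes through XBP1 and ATF6, which bind promoter elements of the ERSE and UPRE type.

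The sequences just before the transcription starts of 4 lumenal members and of HSPA5 are shown because XBP1 and ATF6 are known to act through such promoters. They are the 150 bases before the RefSeq start on the gene's own strand (GRCh38.p14). Capitals mark, on either strand, every CCACG and CCAAT (the ends of an ERSE), the UPRE core TGACGTGG, and the whole of a full ERSE, which is CCAAT, any 9 bases and CCACG. The RefSeq start of DNAJB11 lies inside the longer span that GENCODE gives the gene.
DNAJB9, chr7:108569724-108569873, plus strand: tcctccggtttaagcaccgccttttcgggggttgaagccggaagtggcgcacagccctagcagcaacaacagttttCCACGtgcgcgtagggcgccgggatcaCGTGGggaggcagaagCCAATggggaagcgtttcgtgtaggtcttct
DNAJB11, chr3:186570570-186570719, plus strand: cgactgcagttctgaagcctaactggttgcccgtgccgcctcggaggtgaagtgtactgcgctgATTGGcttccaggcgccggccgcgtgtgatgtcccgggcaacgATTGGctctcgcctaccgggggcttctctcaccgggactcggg
DNAJC3, chr13:95676989-95677138, plus strand: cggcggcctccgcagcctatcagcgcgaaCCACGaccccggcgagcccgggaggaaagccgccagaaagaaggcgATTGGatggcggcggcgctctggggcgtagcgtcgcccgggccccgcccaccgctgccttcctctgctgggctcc
DNAJC10, chr2:182716107-182716256, plus strand: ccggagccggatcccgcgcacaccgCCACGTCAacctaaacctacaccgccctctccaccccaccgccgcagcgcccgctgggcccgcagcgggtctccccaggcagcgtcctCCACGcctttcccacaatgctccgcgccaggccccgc
HSPA5, chr9:125241344-125241493, minus strand: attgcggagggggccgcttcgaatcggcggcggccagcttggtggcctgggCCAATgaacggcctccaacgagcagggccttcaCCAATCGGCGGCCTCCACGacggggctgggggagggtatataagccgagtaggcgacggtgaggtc

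The search covered both strands of a 300-base window, from 250 bases before to 50 bases after the start. Of the 8 members, 7 had an entry in the table, and DNAJC1 had none. HSPA5 held 1 full ERSE, at positions -66 to -48 from its start, a motif found in 0.0769% of 35116 human promoter windows. No window of a member held the full ERSE or ERSE-II (ATTGG, any 1 base and CCACG, in 0.0541% of windows), and DNAJC10 alone held the UPRE core (0.729% of windows), at positions -125 to -118 on the opposite strand and overlapping a CCACG. The shorter letters are common. CCACG was in 4 of the 7 windows, those of DNAJB9, DNAJC3, DNAJC10 and SEC63, against 38.1% of all windows, and CCAAT was in 4, those of DNAJB9, DNAJB11, DNAJC3 and DNAJC10, against 34.6%. The palindrome TGACGTCA was in none of the 7 and in 1.85% of all windows. These matches describe letters in a window and say nothing of binding.

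Expression is given as FPKM, fragments counted per length of transcript and per size of library, a level per length that permits a comparison between genes of one table. Differences are on the scale of log2(FPKM + 0.1) and were tested with limma across all genes passing the filter, 15796 in HEK293T and 12473 in BAT, with Benjamini-Hochberg adjustment. A gene was called at an adjusted p under 0.05 in HEK293T and under 0.01 in BAT.

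RNA of the targeted genes was not lower under every knockout label. SEL1L reached 4.39, 8.74 and 12.85 FPKM in WT cells, compared with 1.82, 3.36 and 2.59 in SEL1L KO cells, so that each SEL1L KO library lay below each WT library. The libraries labelled HRD1 KO held SYVN1 at 22.47, 18.48 and 19.83, and the WT cells at 16.95, 16.70 and 16.92. For Syvn1 in BAT the libraries labelled Hrd1 KO gave 14.05 and 13.77, and WT tissue 5.37, 5.65 and 5.20. The targeted transcript was thus lower in neither HRD1 group, and the directions below hold for libraries as labelled. An RNA level of the whole gene does not measure the protein, and the paper checked knockout HEK293T cells by immunoblot. Sel1l reached 25.20, 8.17 and 8.38 in libraries labelled Sel1L KO, 57.58 and 65.22 in Hrd1 KO, and 9.10, 12.88 and 10.26 in WT tissue. Replicate 1 of Sel1L KO stood apart from its group, with Syvn1 at 118.36 against 16.55 and 9.96, and BAT results are therefore given with and without it.

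Relative depth, estimated from the commonest ratio between 2 libraries among genes low in both, varied 1.84 times among HEK293T and 1.71 times among BAT libraries. The 7 HEK293T markers were detected in every library. They summed to 351 to 740 FPKM for WT, 436 to 773 for HRD1 KO and 418 to 556 for SEL1L KO. Replicate 3 had the lowest sum of each group. The 5 genes listed as absent from this line, PTPRC, HBB, ADIPOQ, UCP1 and ALB, summed to at most 0.61 FPKM, in a WT library where ALB alone was above 0. The 9 genes listed for brown adipocytes, which include genes of adipocytes in general such as Adipoq, were detected in every BAT library. They summed to 24032 to 26091 FPKM for WT, 17975 to 23481 for Hrd1 KO and 19424 to 23933 for Sel1L KO. None of the markers for macrophages (7 genes), fibroblasts (5), endothelium (5) or white adipocytes (4) was at 0 in any BAT library. Sums of macrophage markers ran from 33.0 to 40.6 for WT, from 66.3 to 68.3 for Hrd1 KO and from 73.2 to 132.5 for Sel1L KO. Fibroblast markers summed to 68.2 to 97.7, 139 to 173 and 143 to 158 in the same order. Endothelial markers ranged over 79.3 to 101, 122 to 156 and 74.2 to 137, and white adipocyte markers over 34.2 to 61.0, 133 to 140 and 42.04 to 93.53. The 7 skeletal muscle markers summed to 1.17 to 3.11, 11.0 to 316 and 0.95 to 55.5, with up to 4 of them at 0 in a WT library. The part of these other cells in the BAT differences below was not tested.

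DNAJB11 and DNAJC3 were the members whose levels in HEK293T cells lay above WT in every knockout library. DNAJB11 (ENSG00000090520; GRCh38 chromosome 3, 186567403 to 186585800) binds unfolded proteins directly and passes them to BiP. Its FPKM was 43.41, 48.13 and 63.93 in WT, 104.19, 82.35 and 115.55 in HRD1 KO, and 92.33, 71.66 and 107.02 in SEL1L KO. The lowest knockout library thus exceeded the highest WT library. The group means were 51.8 ± 10.7 (SD, n = 3), 101 ± 16.9 (n = 3) and 90.3 ± 17.8 (n = 3). DNAJB11 was the most abundant member in all 3 groups, and the range of SEC63, the next in order, overlapped it in WT and not in the knockout groups. The log2 difference from WT was 0.96 ± 0.22 (SE) in HRD1 KO, with an adjusted p of 0.769, and 0.80 in SEL1L KO.

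DNAJC3 (ENSG00000102580; chromosome 13, 95677139 to 95794988) holds tetratricopeptide repeats that bind unfolded clients. It was at 6.42, 9.76 and 6.79 FPKM in WT, 12.55, 23.06 and 23.76 in HRD1 KO, and 14.80, 19.39 and 20.77 in SEL1L KO. Again no knockout library overlapped WT, and the means were 2.58 times and 2.39 times that of WT. The least abundant of the 8 members in WT, DNAJC3 had rank 5 in both knockout groups, although its range overlapped those of its neighbours in the order. The log2 difference was 1.33 ± 0.30 in HRD1 KO, with an adjusted p of 0.682, and 1.26 in SEL1L KO.

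No member was called in either comparison by limma in the fit without a replicate block. In HRD1 KO against WT, 0 of 8 members were called, and 0.057% of all genes were called higher and 0% lower. In SEL1L KO against WT, 0 of 8 were called, and 0.0317% of genes were called higher and 0% lower. At an unadjusted p under 0.05, 2 of 8 were higher in HRD1 KO (background 0.943%) and 2 of 8 in SEL1L KO (background 0.715%), DNAJB11 and DNAJC3 both times. None was lower at that level, where 1.06% and 0.779% of genes were. In HRD1 KO the libraries of 2 of 8 members lay wholly above WT, as did 1.96% of genes, and in SEL1L KO again 2 of 8, as did 2.41% of genes.

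HEK293T libraries with the same replicate number deviated together, which makes the difference within a number informative. For DNAJB11, the HRD1 KO library exceeded the WT library of its number by 1.71 to 2.40 times, and the SEL1L KO library by 1.49 to 2.13 times. For DNAJC3, these ratios were 1.95 to 3.50 and 1.99 to 3.06. In the fit with a replicate block, DNAJB11 (log2 difference 0.96 ± 0.14, adjusted p = 0.0445) and DNAJC3 (1.33 ± 0.19, adjusted p = 0.0459) were called higher in HRD1 KO, and so were 0.152% of genes. With median-ratio scaling added to the block, DNAJB11 (adjusted p = 0.0418) kept its call, as 1 of 8 members beside 0.152% of genes, while DNAJC3, at 1.36 ± 0.20, just missed the threshold with an adjusted p of 0.0500193. In SEL1L KO against WT the blocked fit called 0 of 8 members and 0.076% of genes higher, with adjusted p of 0.163 for DNAJB11 and 0.0905 for DNAJC3. Both calls in HRD1 KO therefore depend on the block.

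**Figure D1:**
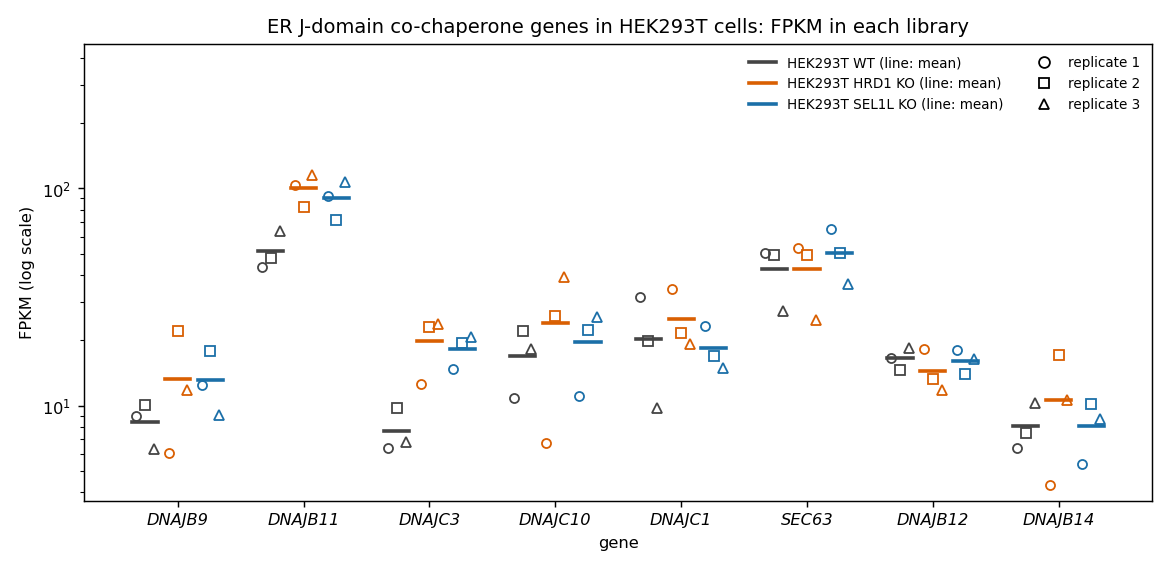
FPKM (vertical axis, log scale) of each member in the 9 HEK293T libraries, by group (colour) and replicate number (symbol), with a line at each group mean. The knockout libraries of DNAJB11 and DNAJC3 lie above all WT libraries, and the groups overlap for the other 6 genes.

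The other lumenal members overlapped WT in HEK293T. DNAJB9 (ENSG00000128590; chromosome 7, 108569867 to 108574850), which binds IRE1 and misfolded clients of ERAD, was at 8.94, 10.04 and 6.36 FPKM in WT, 6.04, 22.13 and 11.87 in HRD1 KO, and 12.47, 17.96 and 9.07 in SEL1L KO. Within replicate numbers it was higher in 2 of 3 HRD1 KO libraries, with ratios from 0.676 to 2.20, and in 3 of 3 SEL1L KO libraries, with ratios from 1.39 to 1.79. Replicate 2 was the highest library of each group. The log2 differences were 0.49 ± 0.44 and 0.60, and the first ranged from 0.030 without HRD1 KO replicate 2 to 0.96 without HRD1 KO replicate 1.

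DNAJC10 (ENSG00000077232; chromosome 2, 182716255 to 182794464) is a disulfide reductase that acts with EDEM1 in ERAD. It was at 10.87, 21.98 and 18.19 in WT, 6.73, 25.94 and 39.13 in HRD1 KO, and 11.07, 22.31 and 25.70 in SEL1L KO. The HRD1 KO libraries thus spanned 5.81 times, from below the lowest WT library to above the highest, and replicate 1 was the lowest of every group. The log2 differences were 0.22 ± 0.59 in HRD1 KO and 0.18 in SEL1L KO.

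Of the membrane members with a lumenal J domain, DNAJC1 (ENSG00000136770; chromosome 10, 21756548 to 22003769), whose cytosolic part binds ribosomes, was at 31.58, 19.78 and 9.75 in WT, 34.57, 21.61 and 19.18 in HRD1 KO, and 23.40, 16.99 and 14.88 in SEL1L KO. Its level was highest in replicate 1 and lowest in replicate 3 of all 3 groups, and the groups overlapped. The log2 differences of DNAJC1 were 0.41 ± 0.40 in HRD1 KO and -0.01 in SEL1L KO, the latter turning to 0.039 under median-ratio scaling. SEC63 (ENSG00000025796; chromosome 6, 107867756 to 107958208), which recruits BiP to the Sec61 translocon, was at 50.63, 49.49 and 27.44 in WT, 53.34, 49.60 and 24.77 in HRD1 KO, and 65.17, 50.27 and 36.37 in SEL1L KO. Its HRD1 KO libraries stayed between 0.903 and 1.05 times the WT library of the same number, and its SEL1L KO libraries between 1.02 and 1.33 times. The log2 differences of SEC63 were -0.02 ± 0.36 and 0.26, with the first turning to 0.0079 under median-ratio scaling.

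Both members with a cytosolic J domain overlapped WT. DNAJB12 (ENSG00000148719; chromosome 10, 72332830 to 72355149) was at 16.67, 14.64 and 18.49 in WT, 18.22, 13.29 and 11.84 in HRD1 KO, and 17.99, 13.99 and 16.47 in SEL1L KO, and its log2 difference in HRD1 KO was -0.22 ± 0.22. DNAJB14 (ENSG00000164031; chromosome 4, 99896248 to 99946618) was at 6.39, 7.49 and 10.30 in WT, 4.31, 17.12 and 10.62 in HRD1 KO, and 5.39, 10.24 and 8.72 in SEL1L KO. Their log2 differences in SEL1L KO were -0.04 and -0.01, and turned to 0.013 and 0.042 under median-ratio scaling.

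Over the 8 members the median log2 difference was 0.32 in HRD1 KO and 0.22 in SEL1L KO, and over all genes tested it was -0.05 and -0.06. The order of the medians by role was the same in both, while single genes overlapped between roles. In HRD1 KO the median (and range) was 0.73 (0.22 to 1.33) for the 4 lumenal members. It was 0.19 (-0.02 to 0.41) for DNAJC1 and SEC63, and 0.00 (-0.22 to 0.22) for DNAJB12 and DNAJB14. In SEL1L KO these were 0.70 (0.18 to 1.26), 0.12 (-0.01 to 0.26) and -0.03 (-0.04 to -0.01). The lumenal DNAJC10 lay below DNAJC1 in HRD1 KO and below SEC63 in SEL1L KO. Both comparisons share the WT libraries.

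No member was called between the HEK293T knockout groups. In HEK293T HRD1 KO against SEL1L KO, 0 of 8 members and 0% of genes were called in either direction, and no member had an unadjusted p under 0.05, while 1.18% of genes were higher and 1.16% lower at that level. The difference was narrowest for DNAJB11 and DNAJB12, with 95% intervals of the log2 difference from -0.34 to 0.66 and from -0.67 to 0.32. It was widest for DNAJC10, from -1.28 to 1.36. With the replicate block the interval of DNAJC10 was -0.62 to 0.69, that of DNAJB11 was -0.15 to 0.48, and the lowest bound of the 8 was that of DNAJB9, from -0.82 to 0.59. The blocked fit again called 0 members.

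In BAT, Dnajb11 and Dnajc3 also lay above WT in all knockout libraries, before and after scaling. Dnajb11 (ENSMUSG00000004460; GRCm38 chromosome 16, 22857845 to 22879634) was at 18.96, 16.29 and 19.35 FPKM in WT, 57.71 and 80.70 in Hrd1 KO, and 212.94, 49.52 and 44.11 in Sel1L KO. Even the lowest knockout library was above 2 times the highest WT library, and Sel1L KO replicate 1 exceeded the other Sel1L KO libraries more than 4 times. Dnajc3 (ENSMUSG00000022136; chromosome 14, 118937976 to 118981697) was at 11.75, 11.86 and 13.26 in WT, 39.05 and 38.55 in Hrd1 KO, and 100.10, 25.22 and 22.16 in Sel1L KO. Its Hrd1 KO libraries lay above 2 of the 3 Sel1L KO libraries and below the other.

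Values of Hrd1 KO in this table have to be read against a general shift, since the median log2 difference of all genes was 0.42 in Hrd1 KO and 0.09 in Sel1L KO, against 0.01 in each after median-ratio scaling. The log2 difference of Dnajb11 in Hrd1 KO was 1.91 ± 0.60 as deposited (adjusted p = 0.0938) and 1.49 scaled. That of Dnajc3 was 1.65 ± 0.56 (adjusted p = 0.110) and 1.23 scaled. In Sel1L KO they were 2.09 ± 0.53 (adjusted p = 0.108) for Dnajb11 and 1.63 ± 0.50 (adjusted p = 0.153) for Dnajc3, and 2.0 and 1.54 scaled.

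No member was called in BAT by limma with all libraries included. In Hrd1 KO against WT, 0 of 8 members were called, and 0.289% of genes were called higher and 0.0802% lower. In Sel1L KO against WT, 0 of 8 were called, and 0.0882% of genes were called higher and 0.016% lower. At an unadjusted p under 0.05, 5 of 8 members were higher in Hrd1 KO, where 25.4% of genes were, and 3 of 8 in Sel1L KO, where 12.7% were. They were Dnajb11, Dnajc3 and Sec63 in both, with Dnajc10 and Dnajc1 in Hrd1 KO. None was lower, where 2.02% and 5.08% of genes were.

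The calls changed when Sel1L KO replicate 1, which shares the fit, was left out. Without that library, Dnajb11 (log2 difference 1.91 ± 0.17, adjusted p = 0.000973) and Dnajc3 (1.65 ± 0.13, adjusted p = 0.000634) were called higher in Hrd1 KO, where 5.72% of genes were. With scaling in addition, both were still called, at 1.48 ± 0.19 (adjusted p = 0.00749) and 1.23 ± 0.12 (adjusted p = 0.00302), beside 0.906% of genes. The same genes were the 2 of 8 called when the fit held only Hrd1 KO and WT (1.55% of genes). In Sel1L KO, leaving the library out took Dnajb11 to 1.36 ± 0.17 (adjusted p = 0.0103) and Dnajc3 to 0.94 ± 0.13 (adjusted p = 0.0131), both still above the threshold of 0.01, which 0.393% of genes passed as higher. With scaling as well, these were 1.20 (adjusted p = 0.0277) and 0.78 (adjusted p = 0.0250), beside 0.176% of genes.

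**Figure D2:**
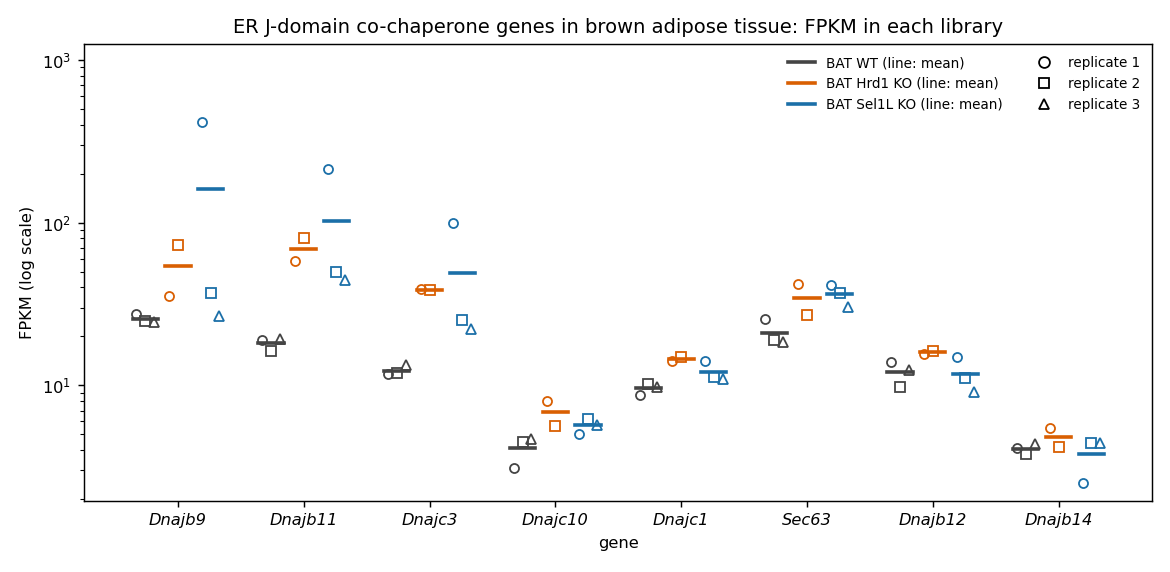
FPKM (vertical axis, log scale) of each member in the 8 BAT libraries, by group (colour) and replicate number (symbol), with a line at each group mean. Sel1L KO replicate 1 reaches 417.79 for Dnajb9, 212.94 for Dnajb11 and 100.10 for Dnajc3, far above the other libraries of its group.

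Dnajb9 (ENSMUSG00000014905; chromosome 12, 44205559 to 44210326) was the member whose difference in Sel1L KO changed most without that library. It was at 27.64, 24.82 and 24.36 in WT, 35.52 and 72.90 in Hrd1 KO, and 417.79, 37.10 and 26.61 in Sel1L KO. The third Sel1L KO library lay within the WT range, and the first was 15.7 times higher than it. The log2 difference in Sel1L KO was 1.54 ± 0.90 with replicate 1 and 0.30 ± 0.29 without it, and 0.13 with scaling as well. In Hrd1 KO it was 0.99 ± 1.01, and 0.57 after scaling, when its lower library (27.91) fell inside the WT range of 25.62 to 31.58. Without Sel1L KO replicate 1, the unadjusted limma p of Dnajb9 in Hrd1 KO was under 0.05, but not with scaling added. Leaving out any 1 library never brought its adjusted p below 0.0410, so it was not called.

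Sec63 (ENSMUSG00000019802; chromosome 10, 42761496 to 42832514) was at 25.43, 18.98 and 18.50 in WT, 41.96 and 26.96 in Hrd1 KO, and 41.53, 36.89 and 30.36 in Sel1L KO. Every knockout library was above WT as deposited, and after scaling this held for Sel1L KO only. Its log2 difference in Sel1L KO was 0.79 ± 0.22, and 0.69 without replicate 1, so it was little affected by that library. In Hrd1 KO it was 0.69 ± 0.25, and 0.27 after scaling.

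Dnajc10 (ENSMUSG00000027006; chromosome 2, 80315466 to 80354043) was at 3.09, 4.51 and 4.71 in WT, 8.04 and 5.65 in Hrd1 KO, and 5.04, 6.25 and 5.72 in Sel1L KO. The Sel1L KO libraries differed by 1.24 times at most, and replicate 1, the highest of its group for 6 members, was the lowest here and for Dnajb14. Dnajc1 (ENSMUSG00000026740; chromosome 2, 18195654 to 18392830) was at 8.78, 10.15 and 9.77 in WT, 14.09 and 15.00 in Hrd1 KO, and 14.05, 11.24 and 10.89 in Sel1L KO. As deposited, both genes lay above WT in every knockout library, and after scaling only Dnajc10 in Sel1L KO did. Their log2 differences were 0.73 ± 0.27 and 0.60 ± 0.19 in Hrd1 KO (0.31 and 0.18 scaled), and 0.48 ± 0.24 and 0.32 ± 0.17 in Sel1L KO.

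Neither member with a cytosolic J domain lay wholly above WT after scaling. Dnajb12 (ENSMUSG00000020109; chromosome 10, 59879556 to 59899302) was at 13.87, 9.71 and 12.47 in WT, 15.59 and 16.34 in Hrd1 KO, and 14.88, 11.12 and 9.11 in Sel1L KO, and it overlapped WT in Sel1L KO. Dnajb14 (ENSMUSG00000074212; chromosome 3, 137867675 to 137916557) was at 4.12, 3.79 and 4.35 in WT, 5.47 and 4.15 in Hrd1 KO, and 2.52, 4.45 and 4.45 in Sel1L KO. It overlapped WT in both knockout groups. Their log2 differences in Hrd1 KO were 0.42 and 0.22, and 0.00 and -0.19 once scaled. In Sel1L KO they were -0.05 and -0.14, and -0.24 and 0.12 without replicate 1, so that the second changed sign.

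The number of members whose BAT libraries lay wholly above WT has to be read against all genes. As deposited, 7 of 8 members did so in Hrd1 KO, all but Dnajb14, but so did 51.1% of genes. In Sel1L KO 5 of 8 did, and 17.7% of genes. After scaling, 2 of 8 members, Dnajb11 and Dnajc3, lay wholly above WT in Hrd1 KO, a share near that of all genes (22.8%), and 4 of 8, Dnajb11, Dnajc3, Dnajc10 and Sec63, in Sel1L KO (13.2% of genes). The scaled counts were added after the data were seen. In HEK293T scaling left DNAJB11 and DNAJC3 as the 2 of 8 in HRD1 KO (2.38% of genes) and in SEL1L KO (3.44% of genes).

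**Figure D3:**
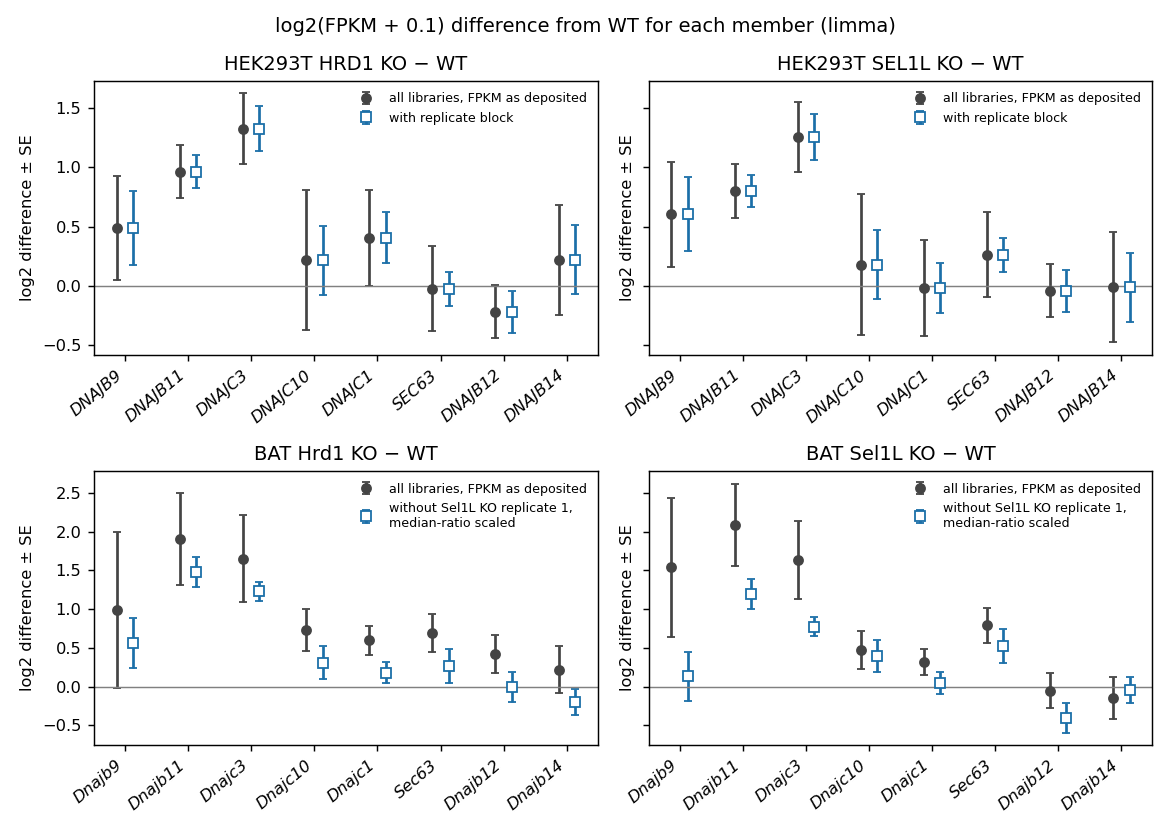
Differences from WT in log2(FPKM + 0.1) for each member (points) with their standard errors (bars), in HEK293T (top) and BAT (bottom). Filled points are the fit of all libraries as deposited, and open squares are the replicate block for HEK293T and the scaled fit without Sel1L KO replicate 1 for BAT. DNAJB11 and DNAJC3 stand highest in both HEK293T panels and in both open series for BAT.

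Median log2 differences over the 8 members were 0.71 in Hrd1 KO and 0.63 in Sel1L KO as deposited, and 0.29 and 0.55 after scaling, against 0.01 for all genes. When Sel1L KO replicate 1 was left out, the median in Sel1L KO was 0.43 as deposited and 0.26 scaled, and that in Hrd1 KO 0.29 scaled. By role, the scaled medians in Hrd1 KO were 0.90 for the lumenal members, 0.23 for Dnajc1 and Sec63, and -0.09 for Dnajb12 and Dnajb14. In Sel1L KO they were 1.5, 0.47 and -0.19 with all libraries, and 0.59, 0.29 and -0.22 without replicate 1. Single genes overlapped between roles in Sel1L KO, where as deposited the lumenal members ran from 0.48 to 2.09, and Dnajc1 and Sec63 from 0.32 to 0.79. In Hrd1 KO these ranges, 0.73 to 1.91 and 0.60 to 0.69, lay apart.

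No member was called between Hrd1 KO and Sel1L KO tissue either. With all libraries, 0 of 8 were called, against 0.00802% of genes higher and 0.0321% lower, and 0 had an unadjusted p under 0.05, against 15.5% of genes higher and 1.18% lower. The 95% interval of the log2 difference ran from -2.86 to 1.76 for Dnajb9, from -1.55 to 1.18 for Dnajb11 and from -1.26 to 1.3 for Dnajc3. Without Sel1L KO replicate 1 all 8 members were higher in Hrd1 KO by value, and 4 had an unadjusted p under 0.05, Dnajb11, Dnajc3, Dnajc1 and Dnajb12, where 18.8% of genes were higher and 1.8% lower. With scaling added Dnajc3 was the 1 member below that level, where 6.65% of genes were higher and 7.2% lower. The intervals without that library ran from 0.11 to 0.98 for Dnajb11, from 0.19 to 1.13 for Dnajb12 and from 0.043 to 0.74 for Dnajc1. The difference of Dnajc3 was 0.71 with an interval from 0.39 to 1.04 and an adjusted p of 0.0710, and 0.45 with an adjusted p of 0.242 after scaling as well, against 0.02 with all libraries.

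Levels between the members were ordered differently in the cells and the tissue. In WT HEK293T, DNAJB11 and SEC63 (42.5 ± 13.1 FPKM) led, followed by DNAJC1 (20.4 ± 10.9), DNAJC10 (17.0 ± 5.65) and DNAJB12 (16.6 ± 1.93), each overlapping the next. DNAJB9 (8.45 ± 1.89), DNAJB14 (8.06 ± 2.02) and DNAJC3 (7.66 ± 1.83) lay below DNAJB12 and overlapped one another. In WT BAT, Dnajb9 was first at 25.6 ± 1.78 and overlapped Sec63 (21.0 ± 3.87), which overlapped Dnajb11 (18.2 ± 1.67). Dnajc3 (12.3 ± 0.842), Dnajb12 (12.0 ± 2.12) and Dnajc1 (9.57 ± 0.707) followed, and Dnajc10 (4.10 ± 0.883) and Dnajb14 (4.09 ± 0.281) came last. The 2 tables were normalised separately, so these orders are not compared by a test.

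HSPA5 gave the level of the Hsp70 that 6 of the members serve. Its FPKM was 193.94, 369.00 and 157.78 in WT HEK293T, 1246.66, 2845.70 and 1067.59 in HRD1 KO, and 919.93, 1886.23 and 868.32 in SEL1L KO. In BAT it was 123.47, 116.87 and 115.96 in WT, 897.03 and 1050.67 in Hrd1 KO, and 3597.68, 674.14 and 595.87 in Sel1L KO. No knockout library overlapped WT. The log2 differences were 2.80 (adjusted p = 0.126) and 2.35 (adjusted p = 0.392) in HEK293T, and 3.03 (adjusted p = 0.0451) and 3.25 (adjusted p = 0.0524) in BAT, none of which passed its threshold in the fit of all libraries without a block. Within replicate numbers the HEK293T ratios to WT ran from 6.43 to 7.71 for HRD1 KO and from 4.74 to 5.50 for SEL1L KO. With the replicate block HSPA5 was called higher in both, by 2.80 ± 0.10 (adjusted p = 1.04e-05) and 2.35 ± 0.10 (adjusted p = 4.79e-05). Without Sel1L KO replicate 1, Hspa5 was called higher in both BAT knockouts, by 3.03 (adjusted p = 2.55e-05) in Hrd1 KO and 2.42 (adjusted p = 0.000239) in Sel1L KO, and again with scaling added (2.60 and 2.25, adjusted p = 0.000401 and 0.00124).

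The ratio of HSPA5 to the summed FPKM of the 6 genes with a lumenal J domain was higher in every knockout library than in WT. In HEK293T it was 1.28, 2.32 and 1.19 in WT, 5.73, 12.7 and 4.56 in HRD1 KO, and 4.20, 9.50 and 4.06 in SEL1L KO. In BAT it was 1.29, 1.35 and 1.29 in WT, 4.57 and 4.38 in Hrd1 KO, and 4.55, 4.06 and 4.26 in Sel1L KO. Sel1L KO replicate 1 thus had a ratio within the range of the other BAT knockout libraries, from 4.06 to 4.57, while its summed FPKM over all 8 members was 809 against 182 and 153 in its group. Dnajb9 made up 51.7% of that sum in this library and between 16.3% and 28.0% in the other BAT libraries.

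**Figure D4:**
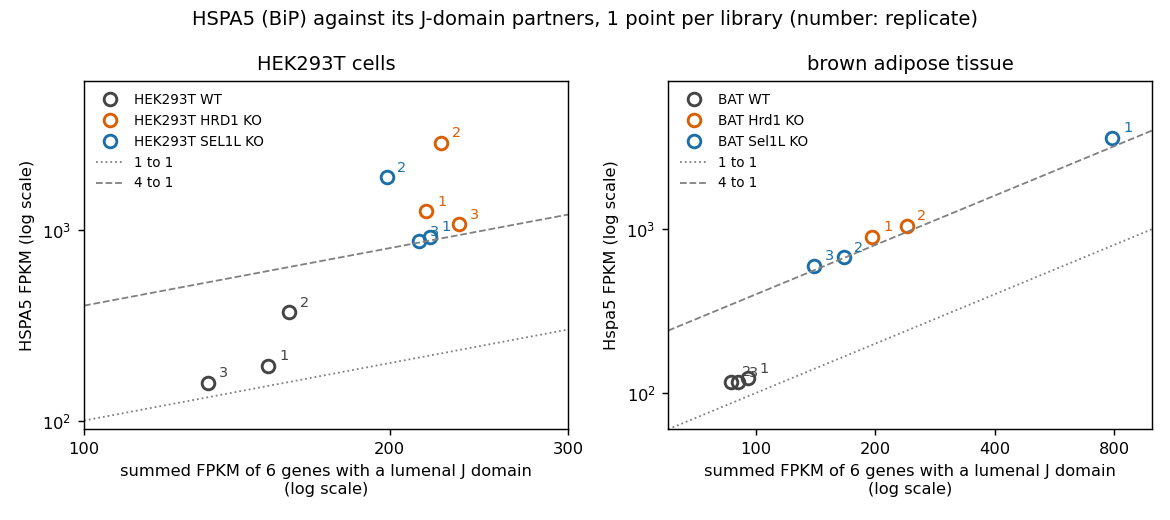
HSPA5 (BiP) FPKM against the summed FPKM of the 6 genes with a lumenal J domain, both on log scales, with 1 point per library and its replicate number, for HEK293T (left) and BAT (right). Dotted and dashed lines mark ratios of 1 and 4, and every knockout library lies above the dashed line while every WT library lies below it.

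The genes that work beside the members were counted from lists by function, at the thresholds and against the background given for the members. Among 8 genes for BiP and its other partners, 2 were called higher in HRD1 KO cells, 0 in SEL1L KO cells, and 1 in each BAT knockout. HSP90B1 (GRP94, the Hsp90 of the ER) was at a mean of 1461 FPKM in HRD1 KO and 381 in WT (log2 difference 1.94, adjusted p = 0.0345). SDF2L1, whose product binds DNAJB11 in a complex with BiP, was at a mean of 448 FPKM in HRD1 KO and 120.3 in WT (1.86, adjusted p = 0.0252) and is named here because it was the other gene called. The BAT gene was Sdf2l1 both times, at mean levels of 2.11 FPKM for WT, 118 for Hrd1 KO and 159 for Sel1L KO, with log2 differences of 5.76 (adjusted p = 0.00750) and 5.72 (adjusted p = 0.00938). With the replicate block, 4 of the 8 were called higher in each HEK293T knockout, HSPA5, SDF2L1, HYOU1 and HSP90B1. After scaling, the adjusted p of Sdf2l1 were 0.0301 and 0.0209, above the threshold. Without Sel1L KO replicate 1, 4 of the 8 genes were called higher in each BAT knockout, Hsp90b1, Sdf2l1, Hspa5 and Hyou1 both times, and with scaling added the numbers were 4 and 3, without Hyou1 in Sel1L KO.

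Among 8 disulfide and EDEM partners of DNAJC10, 2 were called higher in HRD1 KO cells, 1 in SEL1L KO cells and 1 in each BAT knockout, and none lower. PDIA4 (ERp72, a disulfide isomerase) had log2 differences of 2.59 (adjusted p = 0.000348) in HRD1 KO and 2.02 (adjusted p = 0.00377) in SEL1L KO. PDIA6, another isomerase, had 1.29 (adjusted p = 0.0252) in HRD1 KO. With the replicate block 3 were called in HRD1 KO (PDIA4, PDIA6 and P4HB) and 2 in SEL1L KO (PDIA4 and PDIA6). In BAT, Pdia6 had 2.40 (adjusted p = 0.00750) in Hrd1 KO and 2.37 (adjusted p = 0.00945) in Sel1L KO, and 0.0431 and 0.0337 as adjusted p after scaling. When Sel1L KO replicate 1 was left out, 5 of these genes were called higher in Hrd1 KO and 2 in Sel1L KO, and with scaling added 4 (Pdia6, P4hb, Pdia4 and Edem1) and 2 (Pdia6 and Pdia4).

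Among 7 UPR sensors and transcription factors, Xbp1 was the 1 gene called, in Hrd1 KO BAT, where its log2 difference was 2.10 (adjusted p = 0.00934) and the adjusted p after scaling 0.0487. It was at 35.13, 29.24 and 18.22 in WT, 110.79 and 118.35 in Hrd1 KO, and 87.47, 75.78 and 74.45 in Sel1L KO, and every knockout library lay above WT. XBP1 in HEK293T was at 215.06, 182.69 and 132.68 in WT, 113.73, 399.94 and 364.35 in HRD1 KO, and 294.70, 356.15 and 427.20 in SEL1L KO, where the HRD1 KO libraries overlapped WT. None of the 4 SEC63 translocon partners and none of the 8 ERAD partners of DNAJB12 and DNAJB14 was called in any comparison with all libraries and no block. With the replicate block 1 translocon gene, SEC61G, was called higher in HRD1 KO, and SEC61A1 joined it once scaling was added. With block and scaling DDIT3 of the UPR list was called in SEL1L KO, where 0.0823% of genes were called higher. Without Sel1L KO replicate 1, 2 of 4 translocon, 3 of 8 ERAD and 5 of 7 UPR genes were called higher in Hrd1 KO (5.72% of genes). In Sel1L KO 0 were (0.393% of genes). With scaling added Sec61a1 remained as the 1 gene of these lists, in Hrd1 KO (0.906% of genes). SEC61A1, the channel subunit of the translocon, had log2 differences of 0.82 and 0.48 in HEK293T, and Sec61a1 1.75 (adjusted p = 0.0332) and 1.15 in BAT.

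J-domain genes outside the 8 members were called in no comparison with all libraries, where at most 0.289% of genes were called higher. Without Sel1L KO replicate 1, 1 of 15 cytosolic and nuclear genes, Dnajb2, was called higher in Hrd1 KO, beside 5.72% of genes. None of 7 mitochondrial and 4 other endomembrane genes was. With scaling added 0 were called, beside 0.906% of genes. These counts do not set the classes apart from all genes. Relative to the median of all genes, the 8 ER members had a median log2 difference of 0.37 for HRD1 KO cells, 0.28 for SEL1L KO cells, 0.29 for Hrd1 KO tissue and 0.54 for Sel1L KO tissue. For cytosolic and nuclear J-domain genes (14 tested in HEK293T, 15 in BAT) the medians were 0.02, -0.03, 0.18 and 0.23, and for mitochondrial ones (6 and 7 tested) 0.00, 0.03, -0.51 and -0.18. For 4 other endomembrane J-domain genes, a class not set apart from the ER, they were -0.03, 0.04, -0.13 and -0.23. The medians in Sel1L KO tissue without replicate 1 were 0.26 for the ER members, 0.055 for the cytosolic and nuclear, -0.16 for the mitochondrial and -0.20 for the other endomembrane genes. The largest single value among these 3 classes was 0.77, for Dnaja4 in Hrd1 KO, against 1.49 for Dnajb11.

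**Figure D5:**
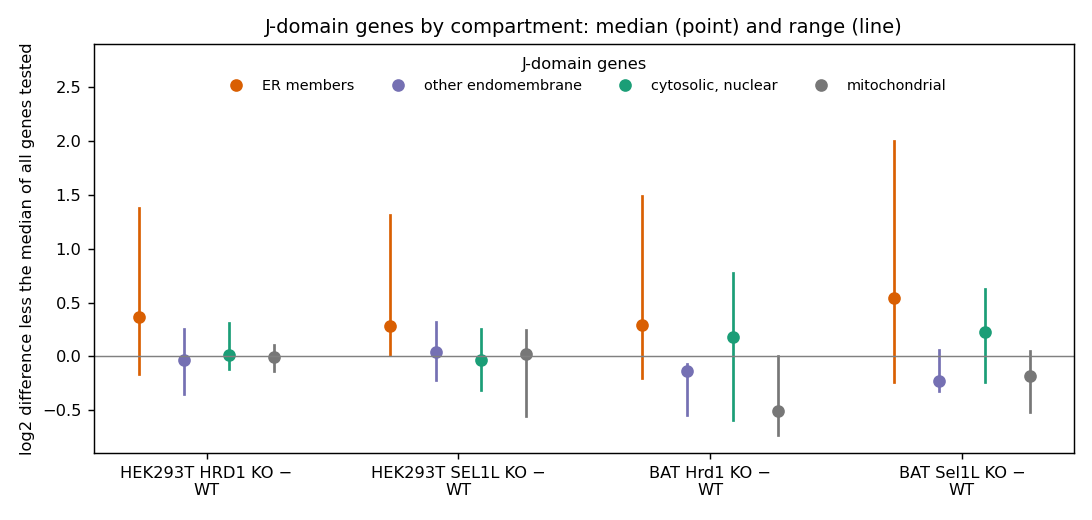
Log2 difference from WT less the median of all genes tested (vertical axis) for J-domain genes by class, as the median (point) and the lowest to highest gene (line) in 4 comparisons. The listed ER members reach from 1.31 to 2.0 at the top of their ranges, and the other classes end at 0.77 or lower. The other endomembrane class was not set apart from the ER. All libraries are included, and without Sel1L KO replicate 1 the highest ER member in Sel1L KO is at 1.19.

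The genes with profiles nearest to DNAJB9 and DNAJB11 were named by the root mean square difference of mean-centred log2 values over the libraries of a table. Over 9 HEK293T libraries the nearest to DNAJB11 were SLC35B1 (0.19), SEC61A1 (0.20) and SEC61B (0.23), where the profile of DNAJB11 itself had a root mean square of 0.48. The nearest to DNAJB9 (0.58) were CREG2 (0.20), RNF152 (0.24) and ACBD3 (0.25). Over 8 BAT libraries, Herpud1 (0.23), Mmp3 (0.23) and another member, Dnajc3 (0.24), were nearest to Dnajb11 (1.17), and Slc3a2 (0.24), Ifrd1 (0.24) and Emd (0.24) to Dnajb9 (1.3). For Dnajb9, Dnajb11 and Dnajc3 the highest of the 8 BAT libraries was Sel1L KO replicate 1.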

How the data were processed

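Per the labels and methods, polyA-enriched RNA was sequenced in paired ends. The authors checked reads with FastQC 0.11.8, mapped them with STAR 2.7.8a to GRCh38 (HEK293T) or GRCm38 (BAT) and estimated abundance with RSEM 1.3.3. The deposited values are FPKM, to 2 decimals, and were not rescaled in the main test. FPKM are not counts, so the DESeq2 test of the authors was not repeated. Depth in reads is unknown, and strand use in counting is not given in the sources used here. Exons of other genes overlap at most 6.43% of any member's exon bases.

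Groups came from the labels, and, although the study states in general that experiments were repeated or used independent samples, the sources used here do not say whether each numbered HEK293T library was a separate culture, so p-values there measure a spread between libraries that may be partly technical. limma 3.58.1 (eBayes with trend) in R 4.3.3 was run on log2(FPKM + 0.1), on genes at 1 FPKM or more in at least 3 HEK293T or 2 BAT libraries, with 3 groups in 1 fit, after the step was tested on simulated data. The members and lists were chosen with earlier results of these data known. Named genes are the members, the targeted genes, HSPA5, XBP1, at most 2 per list by size of change, and the 3 nearest profiles of DNAJB9 and DNAJB11. Alternatives were a pseudocount of 1, no filter, median-ratio scaling, a replicate block, no trend, 2 groups only, another p threshold and each library left out. List counts with the replicate block, and list counts, medians and unadjusted counts without Sel1L KO replicate 1, were added after the data were seen.

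HEK293T libraries of the same number correlated in their deviations from group means at 0.216 to 0.485 (9 pairs), and the numbers were taken to pair the libraries. The 18 other pairs ran from -0.40 to 0.0270. Centring on group means pushes these values down when the same-number values are positive, so they are not separate support. What the numbers stand for is not given in the sources used here. Promoters came from RefSeq and coordinates from GENCODE v44 and vM21. Python 3.11.15, pandas 2.3.3, NumPy 2.4.6 and matplotlib 3.10.9 were used.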

Additional observations from a re-analysis of the deposited data

How the results depend on the processing

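The number of members called was 0 in all 6 comparisons and stayed 0 under the alternatives run, with these exceptions. The other p threshold was an unadjusted 0.05 in HEK293T and an adjusted 0.05 in BAT, where 0 members passed, while 5 in Hrd1 KO and 3 in Sel1L KO passed an unadjusted 0.05. In HEK293T HRD1 KO against WT it was 2 with the replicate block, 1 with the block and median-ratio scaling, and 2 at an unadjusted p under 0.05, and in SEL1L KO against WT it was 2 at an unadjusted p under 0.05. In BAT Hrd1 KO against WT it was 2 with only the 2 groups compared, 0 to 2 with each library left out (2 without Sel1L KO replicate 1), and 2 without that library and with scaling. The 2 combined settings were added after the data were seen. In BAT, same-numbered libraries did not deviate together (correlations of -0.0602 to 0.0774 over 7 pairs), and the replicate block called 0 members there. With the block in HRD1 KO cells, and without Sel1L KO replicate 1 in Hrd1 KO tissue, the log2 differences of the called members were unchanged. The design fixed this, because neither step alters the difference between the 2 group means compared, so it is no test of the differences. The standard errors of these members, which rest on a spread shared by all 3 groups, were smaller. What made the errors smaller was not tested, nor was the cause of the other changes.

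Signs of members that were not called turned as follows, in log2 differences. Under median-ratio scaling, with or without the block, SEC63 was 0.0079 in HRD1 KO, and in SEL1L KO DNAJC1 was 0.039, DNAJB12 0.013 and DNAJB14 0.042. In BAT Hrd1 KO against WT, Dnajb14 was -0.19 scaled, and Dnajb12 -0.0010 and Dnajb14 -0.20 when Sel1L KO replicate 1 was also left out. In Hrd1 KO against Sel1L KO tissue, Dnajc3 was -0.31, Dnajc10 -0.075 and Dnajc1 -0.052 scaled, Dnajc3 was -0.15 with the replicate block, and Dnajb9 was 0.43, Dnajb11 0.28, Dnajc10 -0.087 and Dnajb14 -0.16 scaled without Sel1L KO replicate 1.

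With each library left out, the values in HRD1 KO against WT ran from 0.030 to 0.96 for DNAJB9, -0.30 to 0.96 for DNAJC10, -0.041 to 0.80 for DNAJC1, -0.31 to 0.33 for SEC63 and -0.22 to 0.76 for DNAJB14. In SEL1L KO against WT they ran from -0.11 to 0.55 for DNAJC10, -0.46 to 0.38 for DNAJC1, -0.025 to 0.48 for SEC63, -0.13 to 0.059 for DNAJB12 and -0.20 to 0.26 for DNAJB14. In HRD1 KO against SEL1L KO they ran from -0.57 to 0.35 for DNAJB9, -0.091 to 0.37 for DNAJC3, -0.48 to 0.78 for DNAJC10, -0.50 to 0.064 for SEC63 and -0.21 to 0.77 for DNAJB14. In BAT they ran from -0.24 to 0.11 for Dnajb12 and -0.28 to 0.12 for Dnajb14 in Sel1L KO against WT, and from -1.29 to 0.69 for Dnajb9, -0.59 to 0.55 for Dnajb11, -0.37 to 0.71 for Dnajc3 and -0.41 to 0.22 for Sec63 in Hrd1 KO against Sel1L KO. All depend on 2 or 3 libraries a group, and read depth behind the FPKM is unknown.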
